A study of Arabidopsis thaliana with 8 samples.

Results

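Transcript levels of 52 genes of the B3 superfamily, REM genes among them, were examined in carpels of Arabidopsis thaliana with lost or raised activity of NGATHA (NGA), itself a small family of B3 genes. The 52 were the loci whose deposited description reads AP2/B3-like transcriptional factor (32 loci) or Transcriptional factor B3 family (20 loci), out of 27197 loci in all. Descriptions naming auxin were left out, as were the NGA genes, their close NGA-like relatives and the RAV genes. Carpels of ecotype Columbia at floral stages 8 to 13 were collected by manual dissection, with 15 inflorescences behind each sample, from soil-grown plants under long days. Wild type (WT) had 2 libraries. The mutant, whose genotype label reads nga 1/2/3/4, had 3 libraries and is called nga, or the mutant, here. The overexpression line, 35S:NGA, had 3 libraries. Its label does not say which NGA gene was driven, and the viral 35S promoter is active in most plant tissues and is not limited to the cells that normally use NGA. The labels number the replicates but do not tie them to separate plants, so the p-values measure no more than the scatter among these libraries, and that scatter may be technical.

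The B3 domain is a plant DNA-binding fold shared by several families. LEC2, FUS3 and ABI3 carry it and switch on embryo and seed maturation programmes, the RAV and NGA proteins carry it in leaf and flower development, and the REM family (REPRODUCTIVE MERISTEM), named for a gene expressed in reproductive meristems, holds many genes of which only a few have a described function. The best known REM gene is VRN1 (AT3G18990), which keeps the flowering repressor FLC silent after winter cold. REM1 (AT4G31610), also called REM34, and REM35 (AT4G31615) act in the development of the male and female gametophytes. Gene names are symbols in RefSeq or, for REM23 (AT2G35310), REM25 (AT5G09780), REM35 and REM36 (AT4G31620), synonyms listed there. REM22 is AT3G17010, and members given no name here are called by locus.

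REM genes often stand side by side in the genome and resemble each other, which bears on how short reads are assigned. The 52 genes lay on all 5 chromosomes (6, 9, 10, 14 and 13 genes from chromosome 1 to 5), and 24 of them stood in 6 runs in which neighbouring starts were at most 20 kb apart. Of the 52, 14 shared at least 1 stretch of 50 bases of their exons with another place in the genome, and in 3 of them such stretches made up more than 10% of the exon positions. These were AT1G20600 with 16.4%, AT4G01580 with 15.6% and AT3G18960 with 13.9%. AT3G18960 and AT4G01580, on chromosomes 3 and 4, shared these stretches with each other, with 544 of 573 aligned coding bases identical (94.9%). The longest stretch shared exactly within their coding exons is shown because reads inside it fit both genes. It has 99 bases and lies on the plus strand at chr3:6543099-6543197 and chr4:686252-686350 of TAIR10.1.
AT3G18960 and AT4G01580: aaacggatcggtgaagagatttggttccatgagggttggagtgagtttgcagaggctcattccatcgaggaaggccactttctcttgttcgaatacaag

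Upstream sequences are shown for AT3G18960 and AT2G24700, which had the largest called differences, for REM22, the member called in 2 comparisons, and for AT3G53310, which lay just outside the threshold in both comparisons with nga. Each is the 250 bases before the RefSeq gene start in TAIR10.1, read on the gene's own strand, with matches to a searched motif in capitals. The motifs were CACCTG (the element bound by the B3 domain of RAV1), CATGCA (the core of the RY element bound by LEC2, FUS3 and ABI3), CACGTG (the G-box) and AAAATATCT (the evening element), searched on both strands.
AT3G18960, plus strand, chr3:6542206-6542455: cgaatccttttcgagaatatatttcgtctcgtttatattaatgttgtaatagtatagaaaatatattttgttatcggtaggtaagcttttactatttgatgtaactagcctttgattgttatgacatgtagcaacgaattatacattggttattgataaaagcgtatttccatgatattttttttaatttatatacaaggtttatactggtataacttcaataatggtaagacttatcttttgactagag
AT2G24700, minus strand, chr2:10515412-10515661: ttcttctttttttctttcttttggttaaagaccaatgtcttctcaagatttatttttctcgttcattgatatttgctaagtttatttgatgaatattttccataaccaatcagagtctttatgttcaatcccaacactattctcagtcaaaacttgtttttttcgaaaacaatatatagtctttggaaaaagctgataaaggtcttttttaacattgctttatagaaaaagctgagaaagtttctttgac
REM22, plus strand, chr3:5800022-5800271: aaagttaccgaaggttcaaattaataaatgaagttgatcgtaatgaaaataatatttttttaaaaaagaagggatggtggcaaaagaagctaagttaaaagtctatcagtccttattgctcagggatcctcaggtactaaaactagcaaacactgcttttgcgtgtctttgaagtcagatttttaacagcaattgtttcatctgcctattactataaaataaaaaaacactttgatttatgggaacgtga
AT3G53310, minus strand, chr3:19768787-19769036: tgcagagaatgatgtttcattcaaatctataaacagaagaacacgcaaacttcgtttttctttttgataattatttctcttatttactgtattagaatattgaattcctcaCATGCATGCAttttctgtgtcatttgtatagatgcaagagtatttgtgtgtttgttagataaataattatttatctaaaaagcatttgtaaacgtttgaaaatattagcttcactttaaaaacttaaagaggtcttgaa
The AT3G53310 window held overlapping copies of CATGCA, and none of the 4 motifs occurred in the windows of the 7 members called in any comparison. Over all 52 members, CACCTG occurred in 2 windows, CATGCA in 7, CACGTG in 0 and AAAATATCT in 2. Among all 26700 such windows of the genome the shares were 2.55%, 8.51%, 6.58% and 2.40%. A match describes the letters only and is not evidence of a binding site.

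The libraries held 23.1 M to 38.3 M mapped reads, as recovered from the spacing of the lowest values, and the values were RPKM, reads scaled to exon length and to all mapped reads. Sequencing lanes, named in the file headers, followed genotype in part. Lane 6 held both WT libraries with nga 1 and nga 2. Lane 7 held 35S:NGA 1 and 35S:NGA 2. Lane 8 held the remaining libraries, nga 3 and 35S:NGA 3. No lane held both 35S:NGA and WT. A lane term links these groups by way of the nga libraries and rests on the single nga and 35S:NGA libraries of lane 8. The targeted genes followed the labels in part. NGA4 was at 3.97 and 3.83 RPKM in wild type, at 0.131, 0.123 and 0.248 in the mutant and at 3.68 to 4.56 in 35S:NGA. NGA3 was at 5.47 and 4.81 RPKM in wild type, at 2.56 to 2.97 in the mutant and at 102, 120 and 166 in 35S:NGA. NGA1 had means of 23.7 RPKM in wild type, 23.5 in the mutant and 16.7 in 35S:NGA, and NGA2 had means of 8.82, 10.8 and 7.38. Among NGA1 to NGA4, NGA3 alone was called higher in 35S:NGA than in WT. All 7 carpel and ovule markers were measured, at a summed 378 to 487 RPKM, so carpel tissue was present in every library. Single markers moved in different directions. CRC was at 29.6 and 41.7 RPKM in wild type and 7.39 to 19.2 in 35S:NGA. SPT was at 31.1 and 30.9 in wild type and 53.4 to 67.4 in 35S:NGA. Neither was called against WT (limma adjusted p of 0.154 for CRC and 0.0505 for SPT), while SHP2 and INO were called higher in nga than in WT. In 35S:NGA against nga, SPT was called higher (log2 difference 0.59, limma adjusted p = 0.0372) and SHP2 lower. Markers of other tissues were present and differed between libraries: those of mature pollen summed to 35.4 and 73.6 RPKM in wild type, 102 to 169 in the mutant and 83.5 to 277 in 35S:NGA. In bulk carpels a change in the number of cells of a type and a change in RNA per cell cannot be told apart.

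The members covered a wide range of levels. Of the 52 genes, 3 had a mean over the 8 libraries of at least 50 RPKM, 17 lay between 10 and 50, 13 between 1 and 10, and 19 under 1. Of these 19, 11 were under 0.1 RPKM, and AT1G08985 was at 0 in every library. The median of the 52 means was 2.10 RPKM. The 10 most abundant members held 69.4% of the summed mean RPKM of all 52. REM23 led with a mean of 93.8 RPKM and libraries between 71.7 and 123. AT5G60140 followed with 83.0 RPKM (63.7 to 105), and then AT3G46770 with 61.2 RPKM (47.8 to 76.4). The ranges of these 3 leaders overlapped across libraries. So did those of the following 6 genes, AT3G06220 (49.5 RPKM), AT3G53310 (48.3), AT5G25475 (48.0), VRN1 (44.7), AT3G18960 (43.7) and AT4G01580 (40.4). Overlapping ranges do not compare genes within a library, and AT5G60140 was above AT3G46770 in every library. The 10th was AT4G34400 with 32.8 RPKM.

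**Figure D1:**
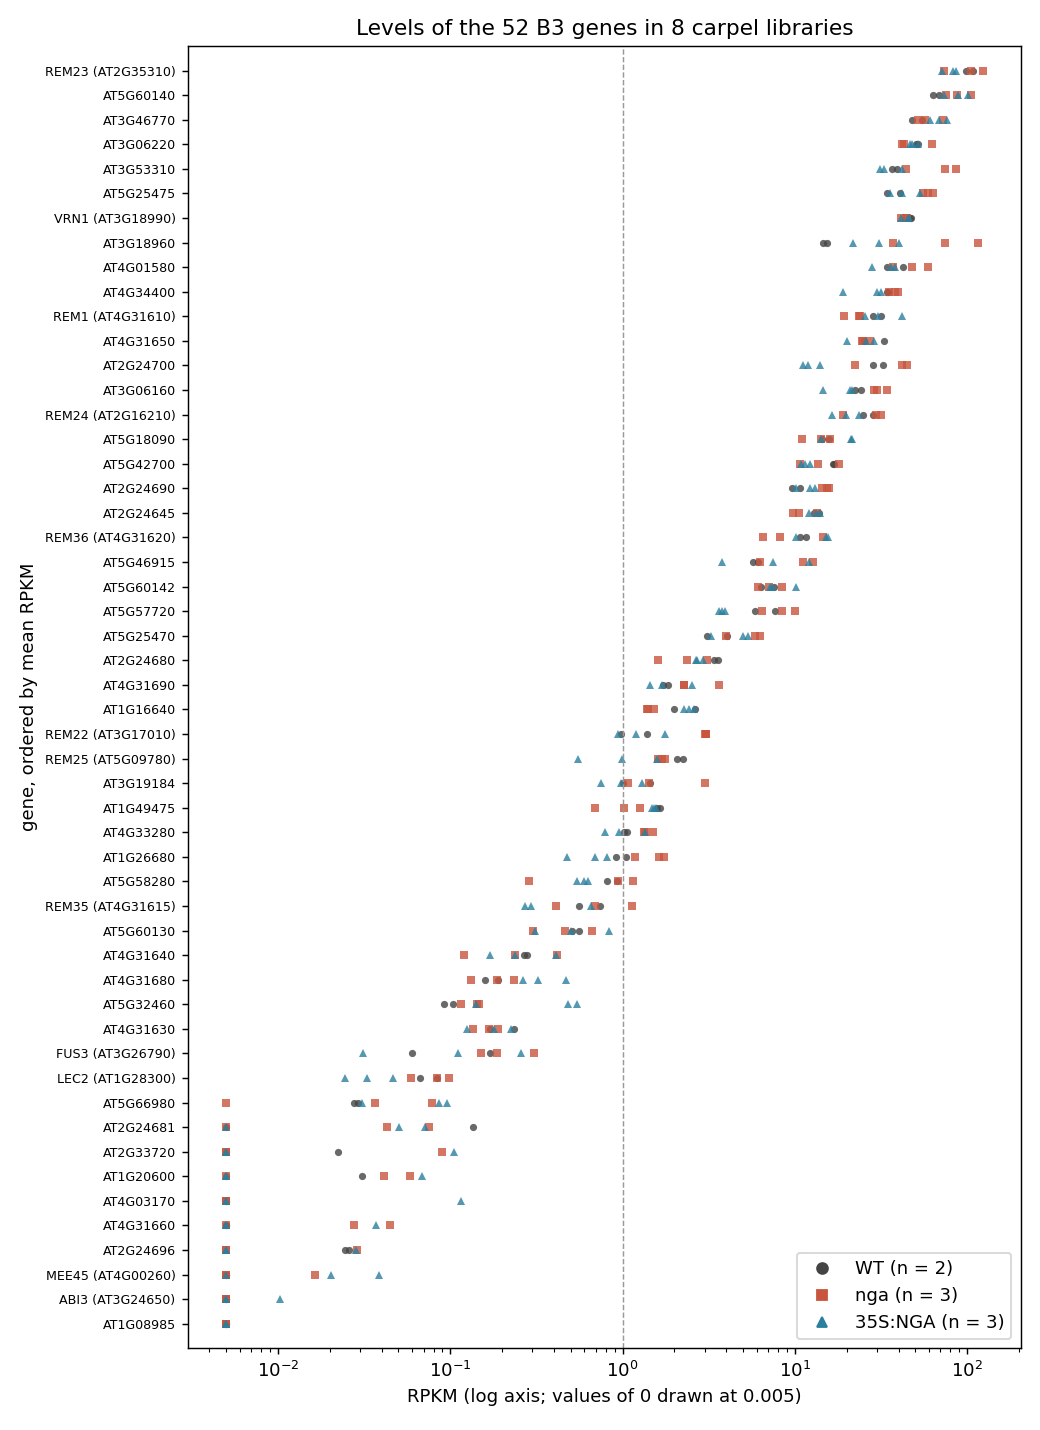
Levels of the 52 members in RPKM on a log axis, with 1 point per library, shape and colour giving the group, and values of 0 drawn at the left edge. REM23 lies between 71.7 and 123 RPKM at the top, and 19 members have means under 1 RPKM (dashed line).

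In the 2 longest runs of neighbouring genes, abundant and scarce genes stood side by side. The 9 genes from REM1 to AT4G31690 (chr4:15317499-15345180, 27.7 kb) include REM35 and REM36, and had means from 0.0136 to 28.0 RPKM, with 4 of 9 at 1 RPKM or more. The 6 genes from AT2G24645 to AT2G24700 (chr2:10480515-10515411, 34.9 kb) spanned 0.0135 to 25.9 RPKM, again with 4 at 1 or more. AT3G18960 and VRN1, a run of 9.60 kb, had means of 43.7 and 44.7 RPKM. The remaining runs were AT3G06160 with AT3G06220 (24.6 and 49.5 RPKM), AT5G25470 with AT5G25475 (4.61 and 48.0) and AT5G60130 to AT5G60142 (0.519 to 83.0 over 3 genes). Of the 24 genes in runs, 16 passed the filter for testing (1 RPKM or more in at least 2 libraries), against 17 of the 28 single genes.

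**Figure D2:**
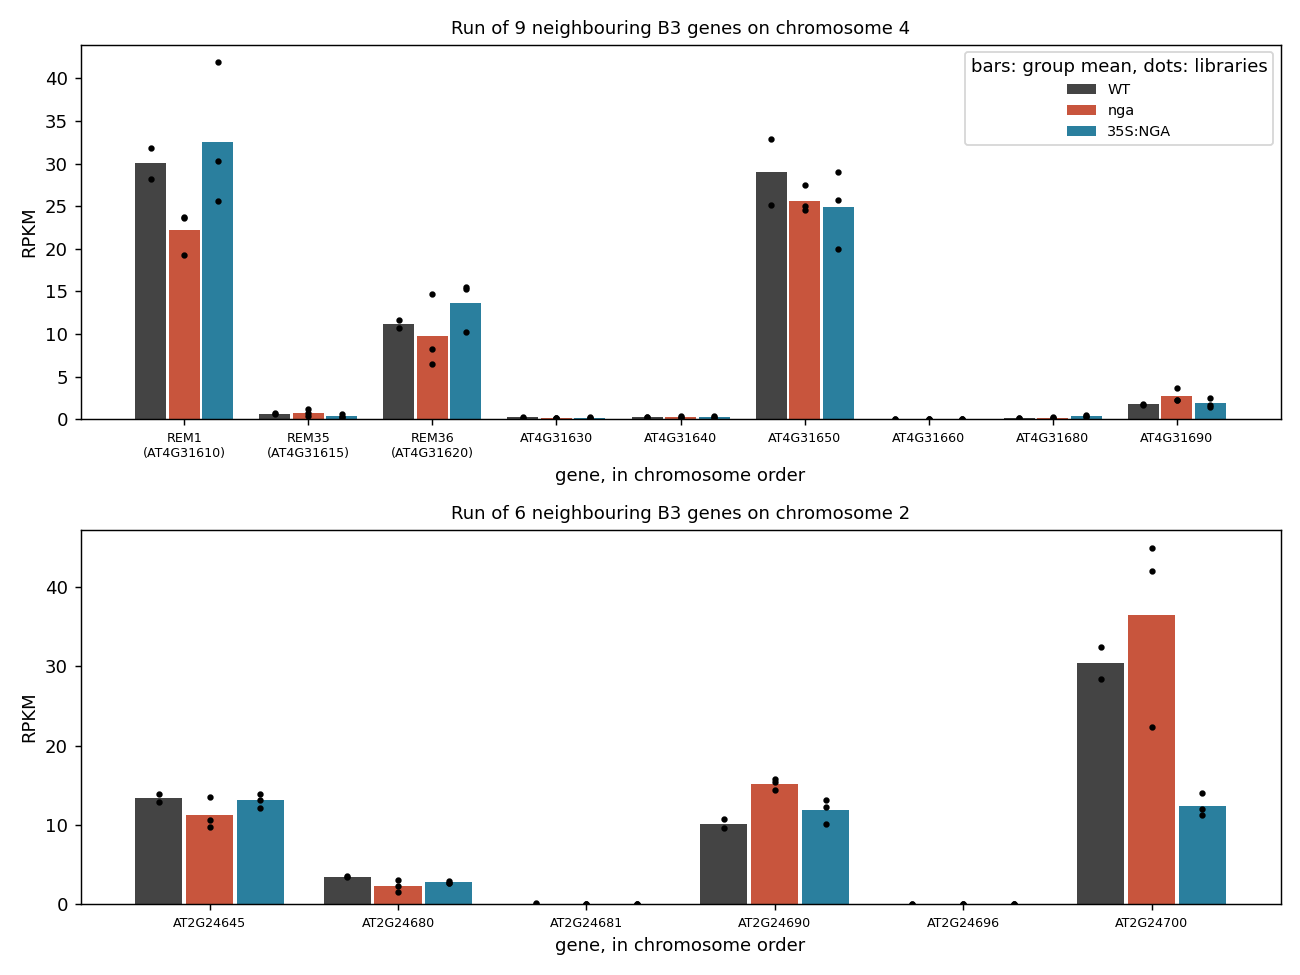
RPKM of the genes in the runs on chromosomes 4 and 2, in chromosome order, with bars for group means and dots for libraries. REM1, REM36 and AT4G31650 stand out from near-empty neighbours in the upper panel, and AT2G24700 is lowest in 35S:NGA in the lower one.

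Among the seed regulators, transcripts were scarce in every library. LEC2, a master regulator of embryo development, was at 0.0244 to 0.0988 RPKM, and FUS3, which acts with it, was at 0.0313 to 0.307. ABI3, the third of these regulators, was at 0 in all libraries but 35S:NGA 2, where it was at 0.0103 RPKM. LEC2 had 1.00 to 4.00 reads per library and FUS3 1.16 to 15.1, as estimated from RPKM and depth, and none of the 3 genes passed the filter for testing. MEE45, named for an embryo arrest mutant, had a mean of 0.00944 RPKM and was also below the filter. In all, 33 of the 52 members were tested, and the highest single value among the 19 untested genes was 1.15 RPKM, for AT5G58280. A gene that reached the filter through 1 group only had to be high there, so the counts below describe the tested genes, not the whole family.

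In nga carpels, 4 of the 33 tested members were higher than in WT and 0 were lower, at a Benjamini-Hochberg adjusted p under 0.05 from limma on log2(RPKM + 1). That is 12.1% of the members, while 16.9% of all 17786 genes tested were called in this comparison (9.26% higher and 7.65% lower), so the share called was not above the background. The members' median log2 difference was 0.20, beside -0.00 over all genes, with a range of -0.44 to 2.11. Groups did not overlap for 12 members that were higher in nga (36.4%, against 29.4% of all genes) and for 6 that were lower (18.2%, against 27.7%). The 4 called genes were AT3G18960, REM22, AT2G24690 and AT5G25475.

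The largest difference was in AT3G18960, which lies near VRN1. It was at 15.5 and 14.6 RPKM in wild type, at 74.4, 115 and 37.0 in the mutant, and at 40.0, 21.7 and 30.8 in 35S:NGA. Every nga library lay above both WT libraries, and the 3 nga values spread more widely than the WT values. The difference was 2.11 ± 0.43 (SE) on the log2 scale, a 4.32-fold rise, with a limma adjusted p of 0.0218. Its close copy AT4G01580 was at 34.2 and 42.2 RPKM in wild type, 59.5, 47.9 and 37.1 in the mutant and 38.4, 36.1 and 27.9 in 35S:NGA, and did not pass (0.31 ± 0.22, adjusted p = 0.338). The share of the pair's RPKM assigned to AT3G18960 was 31.1% and 25.7% in WT, 49.9% to 70.6% in nga and 37.5% to 52.5% in 35S:NGA. The pair's sum was 49.7 and 56.8 RPKM in wild type, 74.1 to 163 in the mutant and 57.8 to 78.4 in 35S:NGA. The sum was thus above both WT libraries in every library of both lines, and 35S:NGA 1 was above nga 3. How the authors' counting split reads between the shared stretches is not given in the sources used here, so the 2 genes' values are uncertain to that extent. AT3G18960 also overlaps MEF20, on the opposite strand, by 359 bases, and MEF20 was at 4.03 and 3.43 RPKM in wild type and 2.46 to 3.25 in the mutant. Of 4 green-tissue markers, 1 (LHCA4) was called higher in nga. LHCA4 was at 141 and 221 RPKM in wild type and 686, 1331 and 339 in the mutant. Its mutant libraries stood in the same order as those of AT3G18960. The sum of the 4 markers was 1723 and 1756 RPKM in wild type, and 1964, 4021 and 2053 in the mutant. RBCS1A held most of the sum in each of these libraries. Both the sum and AT3G18960 were highest in nga 2. Among the mutant libraries the sum was lowest in nga 1 and AT3G18960 in nga 3. PSAD-1 went the other way, at 15.1 and 19.8 RPKM in wild type and 12.4, 8.69 and 8.95 in the mutant. RBCS1A and CAB2 overlapped between nga and WT. The part of green tissue in the result was not tested.

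REM22 was the member with the next largest rise. It was at 0.978 and 1.39 RPKM in wild type, at 3.00, 3.06 and 3.03 in the mutant, and between 0.946 and 1.77 in the 3 35S:NGA libraries. The nga libraries were close to each other and all above the other 5 libraries. The rise over WT was 0.89 ± 0.19 on the log2(RPKM + 1) scale, 1.85-fold on it, with an adjusted p of 0.0242, and the pseudocount lowers the fold of a gene at this level. REM22 stood on 38.8 to 148 reads per library, as estimated from RPKM and depth.

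AT5G25475 and AT2G24690 rose by less. AT5G25475 was at 41.0 and 34.4 RPKM in wild type, 63.0, 59.1 and 55.6 in the mutant, and 53.3, 35.7 and 41.7 in 35S:NGA, with a difference of 0.64 ± 0.18 (1.56-fold, adjusted p = 0.0440). AT2G24690 was at 10.7 and 9.57 RPKM in wild type, 15.8, 15.4 and 14.4 in the mutant, and 13.1, 12.3 and 10.1 in 35S:NGA, with a difference of 0.54 ± 0.14 (1.45-fold, adjusted p = 0.0374). For both genes the 3 nga libraries lay above all other libraries. AT2G24700, in the same run as AT2G24690, was at 32.4 and 28.4 RPKM in wild type and at 42.0, 22.4 and 44.9 in the mutant, where the values straddle WT (0.20 ± 0.28, adjusted p = 0.632).

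The remaining members did not pass the threshold. AT3G53310 was at 36.4 and 39.2 RPKM in wild type and 74.6, 85.7 and 44.4 in the mutant (0.78 ± 0.26, adjusted p = 0.0738). AT5G46915 was at 6.12 and 5.70 RPKM in wild type and 11.2, 12.8 and 6.27 in the mutant (0.63, adjusted p = 0.299), again with nga 3 nearest to WT. VRN1 was at 47.5 and 46.7 RPKM in wild type and 44.3, 44.8 and 41.4 in the mutant, the narrowest range among the 10 most abundant members, and REM1 was at 31.8 and 28.2 RPKM in wild type and 23.6, 19.2 and 23.8 in the mutant (-0.42, adjusted p = 0.173). REM23 and AT3G06220 overlapped between the groups. Leaving out WT 1, WT 2 or nga 1 left 0 members called, leaving out nga 2 left 1 (AT3G18960), leaving out 35S:NGA 2 or 35S:NGA 3 left 3 and leaving out nga 3 gave 6. The share of all genes called moved too, to 0.231%, 0.264%, 2.77% and 4.75% without WT 1, WT 2, nga 1 and nga 2, to 13.0% and 16.0% without 35S:NGA 2 and 35S:NGA 3, and to 28.8% without nga 3. The call was lost in 4 of 19 alternatives for REM22 and in 7 of 20 each for AT5G25475 and AT2G24690. The adjusted p of AT3G18960 ranged from 0.00508 to 0.185 over its 20 alternatives. Within lane 6 alone, 7 members were called (21.2%, against 31.0% of all genes), the 4 above and AT3G53310, AT5G25470 and AT5G46915, and AT3G18960 differed there by 2.55 ± 0.22 on the log2 scale.

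**Figure D3:**
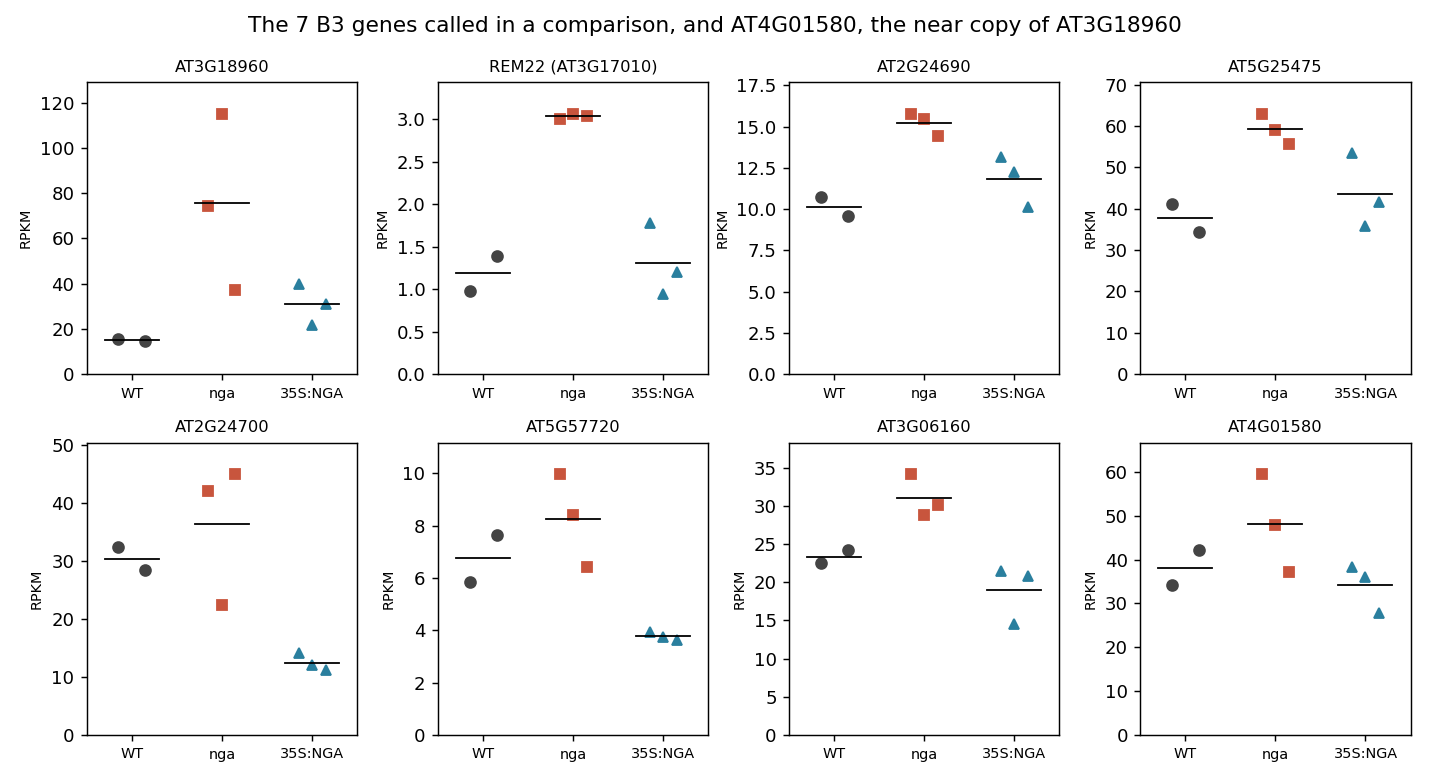
RPKM per library of the 7 members called in any comparison and of AT4G01580, with lines for group means (2 WT, 3 nga and 3 35S:NGA libraries). The nga libraries are above WT for AT3G18960, REM22, AT2G24690 and AT5G25475, and 35S:NGA is below nga for AT2G24700, AT5G57720, AT3G06160 and REM22.

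In 35S:NGA carpels, 0 of the 33 tested members were called against WT, where 0.152% of all tested genes (27) were called, 0.0843% higher and 0.0675% lower. At an unadjusted limma p under 0.05 there were 5 of the 33 members (1 higher and 4 lower), a smaller share than the 20.4% of all genes. The members' median log2 difference was -0.05 beside 0.02 over all genes, in a range of -1.23 to 0.95. Groups did not overlap for 12 members that were lower in 35S:NGA (36.4%, against 23.3% of all genes) and for 3 that were higher (9.09%, against 23.3%). The lowest was AT2G24700, at 32.4 and 28.4 RPKM in wild type and 14.1, 12.0 and 11.2 in 35S:NGA. Its difference was -1.23 ± 0.28, a 2.34-fold lower level, with an adjusted p of 0.0995. It passed where WT and 35S:NGA alone were fitted and where nga 2 was left out, and its adjusted p ranged from 0.0222 to 0.491 over all 19 alternatives. With lane as a term, again 0 members were called, and the difference was -1.89 ± 0.49 for AT2G24700, 2.29 ± 0.55 for AT3G18960 and -0.29 ± 0.29 for AT5G57720. AT5G57720 was at 5.86 and 7.64 RPKM in wild type and at 3.93, 3.76 and 3.62 in 35S:NGA (-0.69 ± 0.19, adjusted p = 0.136). REM25 was at 2.06 and 2.24 RPKM in wild type and at 1.59, 0.997 and 0.554 in 35S:NGA (-0.65, adjusted p = 0.176). In both cases all 3 libraries were below WT. AT3G18960 lay above WT in all 3 libraries, by 0.95 ± 0.43 (adjusted p = 0.257), and AT3G46770 by 0.41 (adjusted p = 0.235). AT5G60140 was at 68.6 and 63.7 RPKM in wild type and 88.8, 102 and 73.9 in 35S:NGA (0.40, adjusted p = 0.259).

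Between the gain and the loss of NGA function, 4 of the 33 tested members were lower in 35S:NGA than in nga and 0 were higher. The share called was 12.1%, against 5.34% of all genes tested (3.72% higher and 1.62% lower). The members' median log2 difference was -0.30, beside 0.00 over all genes, with a range of -1.42 to 0.51. Groups did not overlap for 10 members that were lower (30.3%, against 12.8% of all genes) and for 3 that were higher (9.09%, against 13.6%). This comparison shares its nga libraries with nga against WT, so the 2 sets of values are not separate evidence. The called genes were AT2G24700, AT5G57720, REM22 and AT3G06160.

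AT2G24700 was at 42.0, 22.4 and 44.9 RPKM in the mutant and at 14.1, 12.0 and 11.2 in 35S:NGA. Every 35S:NGA library lay below every nga and WT library. The difference was -1.42 ± 0.25, a 2.68-fold lower level, with an adjusted p of 0.0174. AT5G57720 was at 9.96, 8.39 and 6.43 RPKM in the mutant and 3.93, 3.76 and 3.62 in 35S:NGA (-0.94 ± 0.17, 1.92-fold lower, adjusted p = 0.0197). Its WT libraries, at 5.86 and 7.64, lay within or just under the nga range. REM22 was lower by a log2 difference of -0.82 ± 0.17 (1.77-fold, adjusted p = 0.0335), and 35S:NGA and WT overlapped (0.07 ± 0.19 against WT, adjusted p = 0.864). AT3G06160 was at 34.2, 28.9 and 30.1 RPKM in the mutant, 21.5, 14.6 and 20.9 in 35S:NGA and 22.5 and 24.2 in wild type (-0.70 ± 0.16 against nga, 1.62-fold lower, adjusted p = 0.0449). AT3G06160 overlaps AT3G06150 on the opposite strand by 294 bases, and AT3G06150 went the other way, at 8.98, 8.25 and 7.10 RPKM in the mutant and 11.8, 12.2 and 11.5 in 35S:NGA.

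Other members of the comparison lay outside the threshold. AT3G53310 was at 74.6, 85.7 and 44.4 RPKM in the mutant and 41.6, 31.4 and 32.7 in 35S:NGA (-0.89 ± 0.24, adjusted p = 0.0699). AT3G18960 differed by -1.16 ± 0.38 (adjusted p = 0.117), with nga 3 at 37.0 RPKM between 35S:NGA values of 40.0 and 30.8. Among those higher in 35S:NGA, REM1 was at 23.6, 19.2 and 23.8 RPKM in the mutant and 41.9, 30.3 and 25.6 in 35S:NGA (0.51, adjusted p = 0.141), and AT1G16640 was at 1.52, 1.40 and 1.39 in the mutant and 2.61, 2.43 and 2.28 in 35S:NGA (0.50, adjusted p = 0.0773). Leaving out nga 1, 35S:NGA 2 or 35S:NGA 3 left 0 members called, leaving out nga 2 left 1, leaving out WT 1, WT 2 or 35S:NGA 1 left 2, and leaving out nga 3 gave 9. Of all genes, 2.03%, 1.99% and 3.92% were called without nga 1, 35S:NGA 2 and 35S:NGA 3, 2.70% without nga 2, 3.28%, 3.28% and 3.58% without WT 1, WT 2 and 35S:NGA 1, and 14.1% without nga 3. The call was lost in 13 of 19 alternatives for AT3G06160, in 10 of 18 for REM22, in 6 of 19 for AT5G57720 and in 4 of 19 for AT2G24700. With lane as a term, 0 members and 0.815% of all genes were called. The difference then grew to -1.91 for AT2G24700 (adjusted p = 0.120, with 0.00210 to 0.120 over all its alternatives) and to -0.88 for REM22. It shrank to -0.69 for AT5G57720, -0.51 for AT3G06160, -0.43 for AT3G53310 and -0.26 for AT3G18960. In lane 8 alone, with 1 library per group, AT2G24700 was at 44.9 RPKM in the mutant and 11.2 in 35S:NGA.

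**Figure D4:**
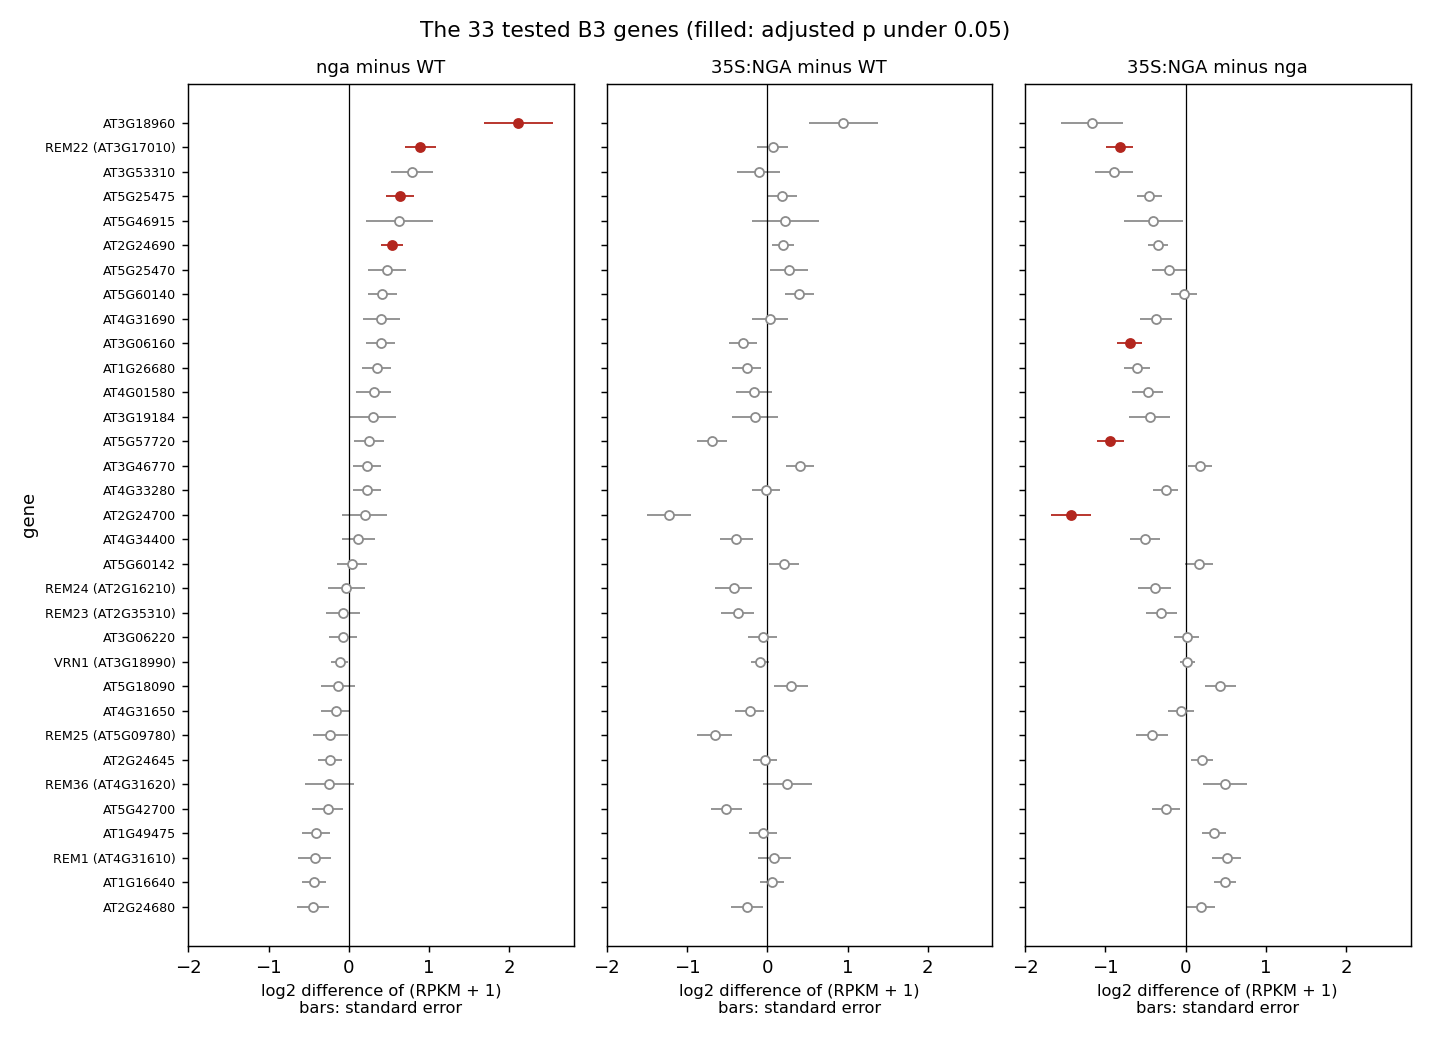
Log2(RPKM + 1) differences of the 33 tested members in the 3 comparisons, with standard errors and called members marked. AT3G18960 is the largest difference in nga against WT (2.11), and AT2G24700 is the lowest in both comparisons of 35S:NGA (-1.23 and -1.42).

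The summed RPKM of the 52 members was 736 and 725 in wild type, 944, 895 and 830 in the mutant, and 807, 694 and 657 in 35S:NGA. The nga libraries all exceeded the WT libraries, and AT3G18960 with AT4G01580 accounted for 134, 163 and 74.1 RPKM of the nga sums. Between 28 and 34 members reached 1 RPKM in a library. Among the scarce members, REM35, which overlaps REM1 by 21 bases on the opposite strand, was at 0.737 and 0.560 RPKM in wild type, 0.689, 0.410 and 1.14 in the mutant and 0.295, 0.273 and 0.658 in 35S:NGA. AT5G32460 was at 0.104 and 0.0918 RPKM in wild type, 0.143, 0.148 and 0.116 in the mutant and 0.543, 0.483 and 0.141 in 35S:NGA. Both genes lay under the filter and were not tested.

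Other B3 genes, outside the 52, were compared by the same fit. Of all genes tested, 9.26% were called higher and 7.65% lower in nga against WT. In 35S:NGA, 0.152% were called against WT and 5.34% against nga. The lists below are too short for their counts to be set against these shares. Of 11 B3 genes left out by the rule 10 were tested, and in nga against WT 2 rose and 2 fell. Those that rose were ABS2 (1.85 ± 0.25) and AT3G11580 (0.89 ± 0.23), and those that fell were NGA4 (-2.07 ± 0.15) and NGA3 (-0.72 ± 0.20). In 35S:NGA, 2 were higher than in WT (NGA3 and ABS2), and 2 were higher than in nga (NGA3 and NGA4). The VAL proteins are B3 repressors of the seed programme driven by LEC2, FUS3 and ABI3, and 2 of 3 of their genes rose in nga: HSI2, at 15.7 and 14.4 RPKM in wild type and 21.5, 26.2 and 22.4 in the mutant (0.60 ± 0.13, adjusted p = 0.0253), and VAL3, at 9.23 and 7.11 in wild type and 14.6, 12.0 and 12.0 in the mutant (0.60 ± 0.16, adjusted p = 0.0389). Neither was called in the other comparisons. Of the 5 ovule MADS-box genes 1 rose in nga against WT and 1 was lower in 35S:NGA against nga, both SHP2 (0.63 and -0.54 with adjusted p of 0.0200 and 0.0310). Of 5 tested flowering and vernalization genes 1 rose in nga, the flowering activator SOC1, AGL20 in RefSeq (0.84, adjusted p = 0.0316). Of 4 tested meristem and floral identity genes 1 rose in nga, the meristem gene STM (0.74 ± 0.12, adjusted p = 0.0133), which was at 24.2 and 24.8 RPKM in wild type, 40.9, 44.3 and 39.7 in the mutant and 21.5, 23.1 and 19.7 in 35S:NGA. STM was also lower in 35S:NGA than in nga (-0.93 ± 0.10, adjusted p = 0.00259). Of the 8 tapetum and microspore markers 2 were tested, DRL1 and LAP6, and both were called higher in nga. The list sums were 32.6 and 14.5 RPKM in wild type and 29.9 to 39.0 in the mutant. The untested AT5G07230 was at 10.8 and 0.167 RPKM in wild type and 0, 0.496 and 0.0703 in the mutant. It, AMS, TDF1 and LAP5 had lower means in nga than in WT, MS1 had a higher one, and DYT1 was at 0. Among the remaining lists, 0 of 3 meiocyte, 0 of 5 tested pollen and 0 of 1 tested synergid and egg genes were called in any comparison. The meiocyte markers summed to 23.8 and 22.2 RPKM in wild type, 11.6, 9.80 and 19.2 in the mutant and 14.0 to 15.2 in 35S:NGA, and each of the 3 genes was lower than in WT in every library of both lines. The part of these tissues in the members' results was not tested.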

How the data were processed

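RNA sequencing libraries from 8 carpel samples were compared. The deposited files give RPKM per locus, written with decimal commas, per the file headers. FastQC and TAIR10 are named per the submitters' processing notes, while no aligner or counting program is given in the sources used here. Of 33590 entries, 6374 without a gene model, 1 malformed entry and 18 entries of repeated loci were left out. Of 62 matching descriptions, 3 naming auxin and 7 of the loci named in the rule were left out, which leaves 52 members. All 290 coordinates used as feature names overlapped a TAIR10.1 gene, and coordinates and sequences are from RefSeq's TAIR10.1.

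The 17786 genes that reached 1 RPKM in 2 or more libraries were tested on log2(RPKM + 1) with limma 3.58.1 (R 4.3.3), with a mean-variance trend and 1 model over all 8 libraries, with Benjamini-Hochberg adjustment and a threshold of 0.05. The fold change is on that scale and understates the change of low genes. Read depth was recovered from low RPKM values and exon lengths. The scripts were tested on simulated data. Exon stretches of 50 bases, runs of neighbours and 250-base upstream windows were computed in Python 3.11.15 with Biopython 1.88, pandas 2.3.3 and numpy 2.4.6.

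The genes named were all members called in any comparison, the 10 most abundant, some of the members with a known role and the runs of neighbours. AT5G46915, AT1G16640, AT5G32460, AT5G58280, AT1G08985 and AT1G20600 were chosen after their values were seen. The members and lists were chosen with earlier results of these data known. Context lists and markers are B3 genes left out by the rule, VAL genes, ovule MADS-box, flowering and meristem genes, and markers of carpel and ovule, synergid and egg, tapetum, pollen, meiocytes and green tissue. Alternatives were 2 scalings, pseudocounts of 0.1 and 5, other filters, only the 2 groups compared, replicate number as a block, lane, no trend and leaving out each library. RPKM are not counts, so no count model was used.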

Additional observations from a re-analysis of the deposited data

How the results depend on the processing

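The counts of called members depended on the libraries and on lane. For nga against WT (4), leaving out each library gave 0 to 6, no filter gave 2, the replicate block gave 7, lane as a term 8, lane 6 alone 7 and leaving out the lane 8 libraries 8. Of all genes, 8.23%, 21.9%, 33.8%, 31.0% and 33.8% were called in these last 5 settings, each share above that of the members (3.92%, 21.2%, 24.2%, 21.2% and 24.2%). For 35S:NGA against WT (0), it was 0 to 1 when each library was left out, and 1 with only the 2 groups compared (1.84% of all genes). For 35S:NGA against nga (4), it was 0 to 9 when each library was left out, 2 with only the 2 groups compared, 2 with the replicate block and 0 with lane as a term (3.24%, 6.14% and 0.815% of all genes). The cause of these moves was not tested. Quantile normalization, equal library medians, both pseudocounts and a mean of at least 5 RPKM kept each count within 1.5 times the value reported. Same-numbered libraries had correlations of deviations between -0.26 and 0.37. Of 3 nga libraries, 1 correlated best with the 35S:NGA library of its own number, so the numbers were not taken as pairs. That match was nga 3 with 35S:NGA 3 (0.24), the libraries of lane 8, so number and lane cannot be told apart there. On the third principal component of the tested genes, nga 3 and 35S:NGA 3 were at -34.7 and -29.0. All other libraries were at 1.62 to 17.9. The part of lane in this was not tested. REM22 in 35S:NGA against WT changed sign under quantile normalization (-0.11) and without WT 1 or 35S:NGA 1, with a range of -0.073 to 0.20 when each library was left out. Without the filter, 51 members were tested, and none of the 18 added was called in any comparison.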
